A study of Homo sapiens with 11 samples.

Results

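The genes described here encode B7-H6 and further surface proteins of stressed or transformed cells that natural killer (NK) cells can recognise. The set holds 9 of the 26485 gene symbols in the count tables, namely NCR3LG1, MICA, MICB, ULBP1, ULBP2, ULBP3, RAET1G, PVR and CD276, found by symbol in both tables. It was put together around NCR3LG1, selected on its fold change and adjusted p between treated and control cells at 24 h, and the others were added for their function with the results known. The changes at 24 h and at 2 h are therefore given as a description, without p-values for the members.

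RNA was sequenced from Caki1-SR, a sunitinib-resistant subline of Caki-1, a human clear cell renal cell carcinoma line from a skin metastasis. All cultures, controls included, were of the line that is grown in medium with 1 µM sunitinib, an inhibitor of receptor tyrosine kinases. Treated cells received the optimized drug combination (ODC), made up of the ruthenium drug Rapta-C at 2 µM, the EGFR inhibitor erlotinib at 1 µM, 1 µM metformin (a drug given for diabetes) and parthenolide, a lactone from the feverfew plant, at 5 µM. There were 3 CTRL and 3 ODC libraries at 24 h, and 2 CTRL and 3 ODC libraries at 2 h. The study's text calls the controls untreated in one place and sham-treated in another. It names clone 1 of the resistant line for the 24 h treatment, so those values belong to 1 clone. The clone of the 2 h libraries is not given in the sources used here. Nothing in the labels says that the libraries of a group came from separate cultures, and their spread may be technical.

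NK cells weigh activating against inhibitory signals from the cell they touch. NKG2D, an activating receptor, binds the MHC-like proteins MICA and MICB and the ULBP/RAET1 family, which many cells show little of until they are stressed, infected or transformed. NKp30 binds B7-H6, a B7 family protein found mostly on tumour cells, and DNAM-1 binds PVR, which the inhibitory receptor TIGIT binds too. CD276 (B7-H3) fits the group least. Its receptor is not settled, and it is known mainly as a protein that restrains T and NK cells.

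Each library held 17785229 to 20882856 counts at 24 h and 25782895 to 31118349 at 2 h. Levels are given as CPM, the count relative to the library total after TMM scaling, and the tables of both times were scaled separately. The renal epithelial and mesenchymal markers PAX8, KRT8, KRT18, VIM, CDH2 and MET were abundant, whereas CA9 (at most 1 count in a library), PAX2 (at most 4) and CDH1 (at most 21) of the same list of 10 were at or near 0. The 14 lymphocyte and NK cell markers summed to between 0.731 and 1.77 CPM, and KLRK1 (NKG2D itself), NCR1, NKG7, GNLY and CD3D had 0 counts in all 11 libraries. A control library at 2 h stood apart. CTRL library 1 held 37.6 CPM of COL1A2 and 41.8 CPM of COL3A1, collagen genes of fibroblasts, against at most 0.356 and 0.194 CPM in the other 2 h libraries, and 3.87 CPM of the epithelial gene EPCAM against at most 0.874. The 6 fibroblast markers summed to 322 CPM in that library and to between 137 and 169 CPM in the other 2 h libraries. The part of this in the 2 h results was not tested, and the members' fold changes at 2 h are given with and without that library.

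The genes lie on 4 chromosomes of the hg38 genome (GENCODE release 44). NCR3LG1 is on chromosome 11 from 17351800 to 17377341, PVR on chromosome 19 from 44643798 to 44666162, and CD276 on chromosome 15 from 73683966 to 73714514. MICA (31399784 to 31415315) and MICB (31494881 to 31511124) lie side by side in the MHC region of chromosome 6. The ULBP/RAET1 genes form a cluster on the other arm of that chromosome, with RAET1G from 149916878 to 149923121, ULBP2 from 149942014 to 149949235, ULBP1 from 149963943 to 149973715 and ULBP3 from 150061053 to 150069121. The 250 bases before the start of NCR3LG1 and of ULBP1 are shown because these members had the largest fitted changes in either direction at 24 h. They are RefSeq sequences of GRCh38.p14 on the plus strand, from chr11:17351550-17351799 and chr6:149963693-149963942, with GC boxes (GGGCGG on either strand) in capitals.
NCR3LG1: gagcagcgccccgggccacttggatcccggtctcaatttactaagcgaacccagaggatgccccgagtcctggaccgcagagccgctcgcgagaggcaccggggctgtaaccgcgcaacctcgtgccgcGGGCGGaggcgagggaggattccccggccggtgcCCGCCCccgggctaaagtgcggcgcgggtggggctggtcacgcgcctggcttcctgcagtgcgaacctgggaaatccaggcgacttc
ULBP1: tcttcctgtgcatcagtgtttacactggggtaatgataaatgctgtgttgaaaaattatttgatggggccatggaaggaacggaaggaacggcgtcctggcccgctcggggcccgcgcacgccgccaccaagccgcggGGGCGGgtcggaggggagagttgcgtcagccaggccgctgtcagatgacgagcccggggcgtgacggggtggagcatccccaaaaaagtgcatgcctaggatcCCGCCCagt

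Windows of 300 bases, from 250 bases before a start to 50 after it, were available for all 9 members, with a second start for CD276. Both strands were searched for 7 motifs. The GC box GGGCGG occurred in windows of 8 members, all but PVR, and in 45.0% of all 35116 windows. The AP-1 letters TGANTCA occurred in ULBP2 and ULBP3 (7.71% of all windows), the C/EBP-ATF letters TGATGNAA in ULBP2 (3.62%), and the TATA box TATAAA in ULBP1 (11.5%), downstream of the start. The antioxidant response element TGACNNNGC (13.3% of all windows), the E-box CACGTG (7.26%) and the heat shock element (0.49%) were in no member's window. These are matches of letters, not binding sites.

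Several members belong to gene families, and reads shared between copies can be lost or split. Of the 100-base windows inside the exons of each gene's MANE Select transcript, 100% occurred once on the main chromosomes for NCR3LG1, MICA, MICB and PVR. The share was 98.7% for ULBP1, 98.4% for CD276, 97.3% for RAET1G, 92.0% for ULBP2 and 90.5% for ULBP3. With the alternative haplotype contigs of hg38 counted too, only 1.16% of the MICA windows and 0% of the MICB windows occurred once, and the shares of the others stayed the same. Which contigs the authors aligned to is not given in the sources used here, so the levels of MICA and MICB are less certain than their counts imply. Of the 5792 bases of the PVR transcript, 121 are shared with CEACAM19 and 2028 with an unnamed gene, both on the same strand. The latter has no row in the count tables. Of the 1150 bases of the RAET1G transcript, 138 lie opposite RAET1E-AS1.

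In control cells at 24 h, CD276 and PVR were by far the most abundant members per length of transcript. CD276 stood at 53.3 ± 5.51 CPM per kb (SD, n = 3) and PVR at 38.2 ± 0.645 CPM per kb. MICB followed at 14.4 ± 0.175 and MICA at 13.7 ± 1.92 CPM per kb, and the ranges of these neighbours overlapped. NCR3LG1 was at 2.42 ± 0.413 CPM per kb, apart from its neighbours on either side. ULBP2 (0.908 ± 0.382), ULBP3 (0.847 ± 0.275) and ULBP1 (0.684 ± 0.239 CPM per kb) had overlapping ranges. In the 2 h controls the order was the same, except that MICA was above MICB, with overlapping ranges. There NCR3LG1 overlapped ULBP2, through CTRL library 1 (1.25 CPM per kb of NCR3LG1, against 2.31 in library 2), while ULBP2, ULBP3 and ULBP1 lay apart from each other.

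RAET1G, which encodes the NKG2D ligand also called ULBP5, had 0 counts in all 11 libraries. At these depths that allows up to 3 counts, or 0.0964 to 0.169 CPM per library before TMM scaling, counting error only. It was the member that could not be tested, so 8 of the 9 passed the filter on low counts at both times.

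At 24 h, NCR3LG1 was more than 2-fold higher in treated cells, ULBP1 and PVR were separated between the groups without passing the call, and the remaining tested members overlapped. A call needed an adjusted p under 0.05 by edgeR's quasi-likelihood method, with the Benjamini-Hochberg adjustment over 12689 genes, and a fold change of at least 2. Of the 8 tested members, 1 passed, NCR3LG1, where 0.165% of all tested genes did in either direction, and 0.189% without the limit on the fold change. At an unadjusted p under 0.05, 3 passed (NCR3LG1, ULBP1 and PVR), where 12.2% of all genes did. The same 3 had groups that did not overlap, where 17.9% of all genes had. Since the set was chosen with this contrast known, nothing is read from these shares. The fitted changes were above 0 in 5 members (50.1% of all genes) and below 0 in 3, with a median log2 fold change of 0.067, against 0.00089 over all genes tested. Sums of marker levels at 24 h are given as well, without a test. The 10 renal markers summed to 6254 to 6874 CPM in CTRL and 5140.3 to 6139 CPM in ODC cells. Of the 6 that could be tested, 1 was fitted higher and 5 lower. VIM, the most abundant, had means of 3342 CPM in CTRL and 2778 CPM in ODC cells. On the log2 scale VIM was at -0.27, KRT8 at -0.62 and KRT18 at -0.71 (edgeR adjusted p = 0.384, 0.202 and 0.128). PAX8 was at 0.33, and MET and CDH2 were both at -0.017. The 5 monocyte markers summed to 6.06 to 6.64 CPM in CTRL and 8.51 to 8.65 CPM in ODC cells. Most of this was CD68, at 5.62 to 5.86 CPM in CTRL and 6.92 to 7.74 CPM in ODC cells (edgeR adjusted p = 0.419). CD14, CSF1R, ITGAM and LYZ had at most 19 counts in a 24 h library. For the 6 fibroblast markers the sums were 66.6 to 142 CPM and 115 to 169 CPM, and these ranges overlapped. They came from COL1A1 and PDGFRB, and COL1A2, COL3A1, THY1 and FAP had at most 1 count in a 24 h library. The part of the marker genes in the members' changes was not tested.

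NCR3LG1 encodes B7-H6, the ligand of NKp30. It stood at 14.2, 13.6 and 18.4 CPM in CTRL libraries 1, 3 and 5 and at 34.5, 33.0 and 42.3 CPM in ODC libraries 2, 4 and 6. The lowest treated library was far above the highest control library. The mean went from 15.4 ± 2.63 CPM in controls to 36.6 ± 5.00 CPM in treated cells (SD, n = 3 each), a log2 fold change of 1.25 (standard error 0.16), or 2.38-fold. Of all tested genes, 98.84% had a lower log2 fold change. With each library left out in turn the log2 fold change lay between 1.13 and 1.40, but the adjusted p stayed under 0.05 only without ODC library 6. These refits reuse the libraries on which NCR3LG1 was selected and are given as a description. The adjusted p was over 0.05 without CTRL library 1 (1.18), CTRL library 3 (1.17), CTRL library 5 (1.40), ODC library 2 (1.29) or ODC library 4 (1.32). All of these fits, also that without ODC library 6, had equally few libraries, and why they differed was not tested.

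The NKG2D ligands did not move together. ULBP1, a GPI-anchored member of the ULBP family, stood at 1.68, 3.08 and 1.83 CPM in CTRL libraries 1, 3 and 5 and at 0.787, 0.919 and 1.20 CPM in ODC libraries 2, 4 and 6. All treated libraries were below all controls, at 35, 59 and 33 counts in CTRL and 16, 17 and 25 counts in ODC cells. The log2 fold change was -1.17 (standard error 0.33), lower than in all but 0.449% of tested genes, and -0.85 without CTRL library 3. The change did not pass the call.

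ULBP2, a close relative of ULBP1, was measured at 0.769, 1.10 and 1.77 CPM in CTRL and at 1.18, 1.14 and 2.35 CPM in ODC cells, with overlapping groups. Its log2 fold change was 0.38 (standard error 0.42), and leaving out single libraries gave -0.054 (without ODC library 6) to 0.74 (without CTRL library 5). ULBP3 was at 2.64, 1.77 and 3.49 CPM in CTRL and 2.31, 2.32 and 3.22 CPM in ODC cells. Its log2 fold change was -0.0048 (standard error 0.30). In both genes the library with the highest value was CTRL library 5 among the controls and ODC library 6 among the treated.

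MICA and MICB, the MHC-encoded ligands of NKG2D, varied little. MICA was at 19.4, 16.0 and 21.1 CPM in CTRL and 20.0, 17.7 and 20.2 CPM in ODC cells, a log2 fold change of 0.035 (standard error 0.14). MICB was at 34.4, 34.6 and 35.2 CPM in CTRL and 30.2, 35.6 and 28.4 CPM in ODC cells. The ODC libraries of MICB lay below the controls in libraries 2 and 6 and above them in library 4, and its log2 fold change was -0.14 (standard error 0.12).

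PVR, the ligand of DNAM-1 and TIGIT also called CD155, was at 222, 217 and 224 CPM in CTRL libraries 1, 3 and 5 and at 253, 285 and 271 CPM in ODC libraries 2, 4 and 6. Every treated library was above every control. The difference was small, from 221 ± 3.74 to 269.6 ± 16.0 CPM (SD, n = 3 each), a log2 fold change of 0.29 (standard error 0.086), and between 0.24 and 0.33 with each library left out. CD276 was at 159, 173 and 195 CPM in CTRL and 171, 190.1 and 204 CPM in ODC cells. These groups overlapped, with a log2 fold change of 0.10 (standard error 0.11).

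**Figure D1:**
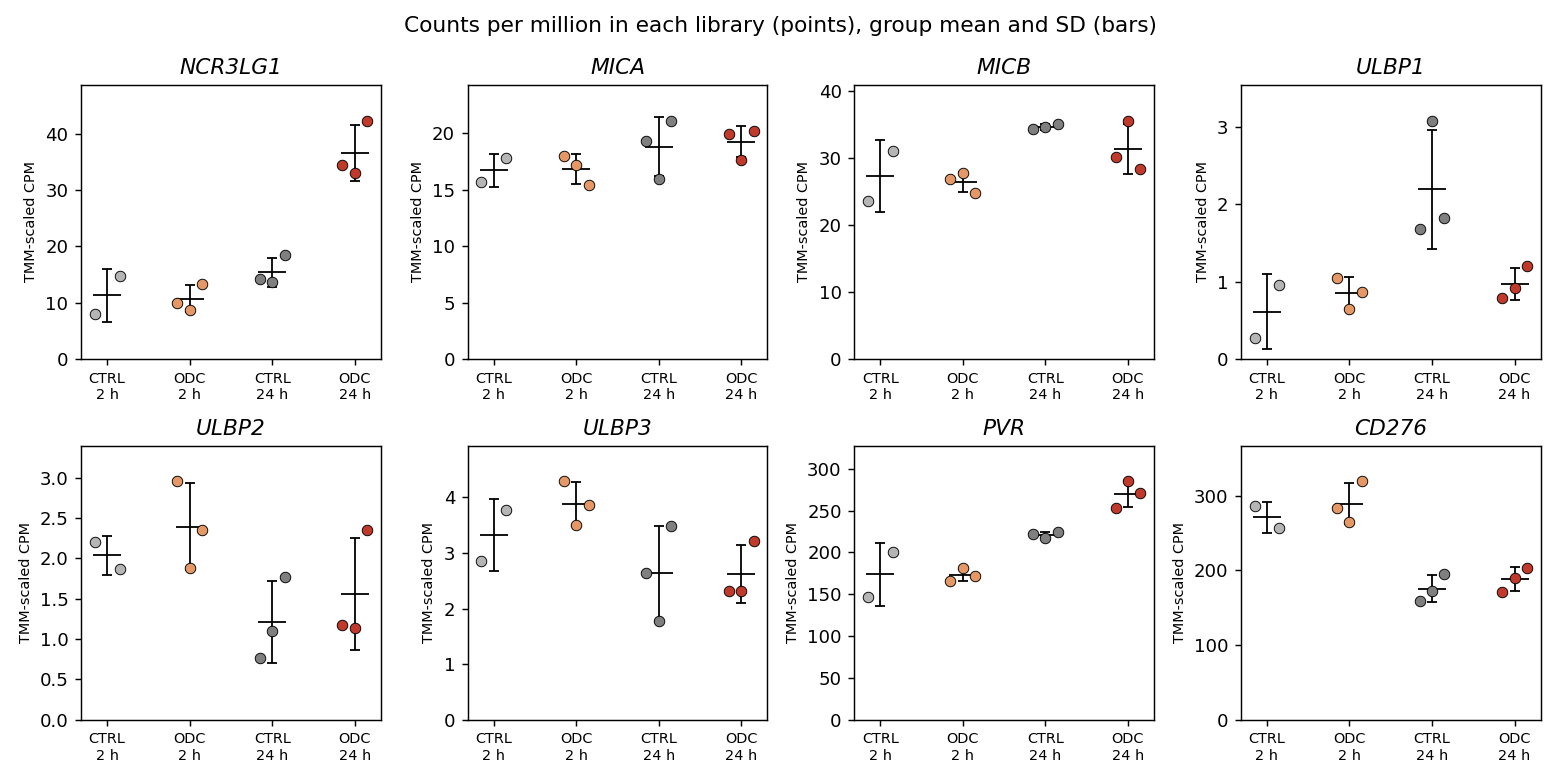
TMM-scaled CPM of the 8 ligand genes with counts, 1 panel per gene, for CTRL and ODC at 2 h and 24 h. Points are libraries, bars the group mean and SD. The 3 ODC libraries of NCR3LG1 at 24 h lie between 33.0 and 42.3 CPM, above all other libraries.

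At 2 h no member showed a separation between the groups. Of the 8 tested members, 0 passed the call, 0 had an unadjusted p under 0.05 (2.34% of the 13332 genes tested did) and 0 had groups that did not overlap (15.3% of all genes had). Over all genes 0% passed the call by edgeR's quasi-likelihood test, while the likelihood ratio test called 5 genes and DESeq2 called 1, none of them a member. The median log2 fold change of the members was 0.051, against -0.0060 over all genes, and 5 members were fitted higher (48.2% of all genes were). This turned with the control used. Without CTRL library 1, 3 members were fitted higher and the median was -0.12, and without CTRL library 2 all 8 were, with a median of 0.22. With library 1 as the only control, 40 genes in all passed the call, and 0 members.

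NCR3LG1 was at 7.93 and 14.7 CPM in CTRL libraries 1 and 2 and at 10.0, 8.71 and 13.4 CPM in ODC libraries 3, 4 and 5 at 2 h. The treated libraries all fell between the controls. The log2 fold change was -0.080 (standard error 0.28), and it depended on which control was used, at -0.45 without CTRL library 1 and 0.45 without CTRL library 2. A fit with 1 control takes its spread from the treated libraries. CTRL library 1 was the lowest of the 5 libraries in NCR3LG1, MICB, ULBP1, ULBP3 and PVR, and lay between the others in MICA, ULBP2 and CD276. The share of all genes that were lowest in that library was not taken. Of the regulator genes named below, ATF3 (4.14 CPM, against at least 16.3) and ATF4 (217 CPM, against at least 298) were lowest there too. MYC was not. Why these genes were low in that library was not tested.

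ULBP1 was at 0.271 and 0.953 CPM in the controls, from 7 and 27 counts, and between 0.647 and 1.05 CPM in the treated libraries. Its log2 fold change of 0.46 (standard error 0.53) was -0.16 without CTRL library 1 and 1.66 without CTRL library 2, where it had an unadjusted p under 0.05. PVR was at 147 and 200.1 CPM in the controls and between 166 and 181 CPM in ODC cells, a log2 fold change of -0.0073 (standard error 0.13) that was -0.21 without CTRL library 1 and 0.25 without CTRL library 2. MICA, MICB, ULBP2, ULBP3 and CD276 had log2 fold changes between -0.047 (MICB) and 0.23 (ULBP2). Without CTRL library 1 these 5 lay between -0.23 (MICB) and 0.36 (ULBP2).

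**Figure D2:**
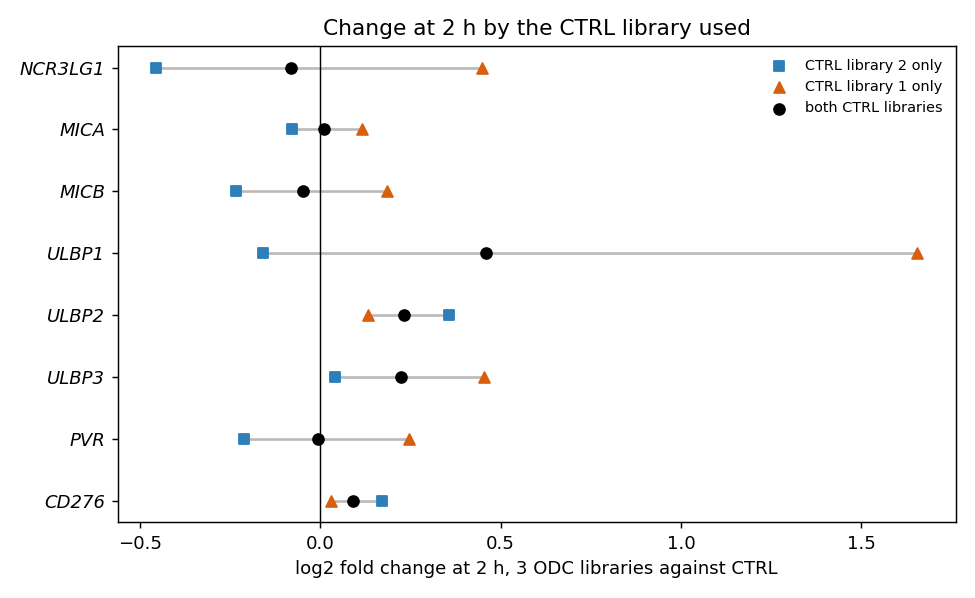
Log2 fold change at 2 h of the 8 tested ligand genes, from the 3 ODC libraries against both CTRL libraries (black), CTRL library 2 (blue squares) or CTRL library 1 (orange triangles). NCR3LG1 runs from -0.45 to 0.45 and ULBP1 from -0.16 to 1.66 by the control used.

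The effects at 24 h and at 2 h were set against each other in a joint fit of all 11 libraries. The log2 fold change at 24 h minus that at 2 h was 1.32 for NCR3LG1 (standard error 0.35) and -1.64 for ULBP1 (standard error 0.64). Of the 8 tested members, 0 had an adjusted p under 0.05 in this contrast (0.015% of 13333 genes did), also 0 by DESeq2 and by the likelihood ratio test, and NCR3LG1 and ULBP1 had an unadjusted p under 0.05 (5.93% of all genes did). A difference between the time points was thus not shown for NCR3LG1. The difference was 1.70 without CTRL library 1 of the 2 h set and 0.79 without CTRL library 2. That of ULBP1 was -1.02 without CTRL library 1 and -2.84 without CTRL library 2. The remaining members had differences between -0.24 (ULBP3) and 0.28 (PVR), and that of PVR was 0.49 without CTRL library 1 and 0.025 without CTRL library 2. The names of the libraries carry a different month for each time, and time and month cannot be told apart. In bulk RNA, fewer cells with a transcript and less of it per cell cannot be told apart either.

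**Figure D3:**
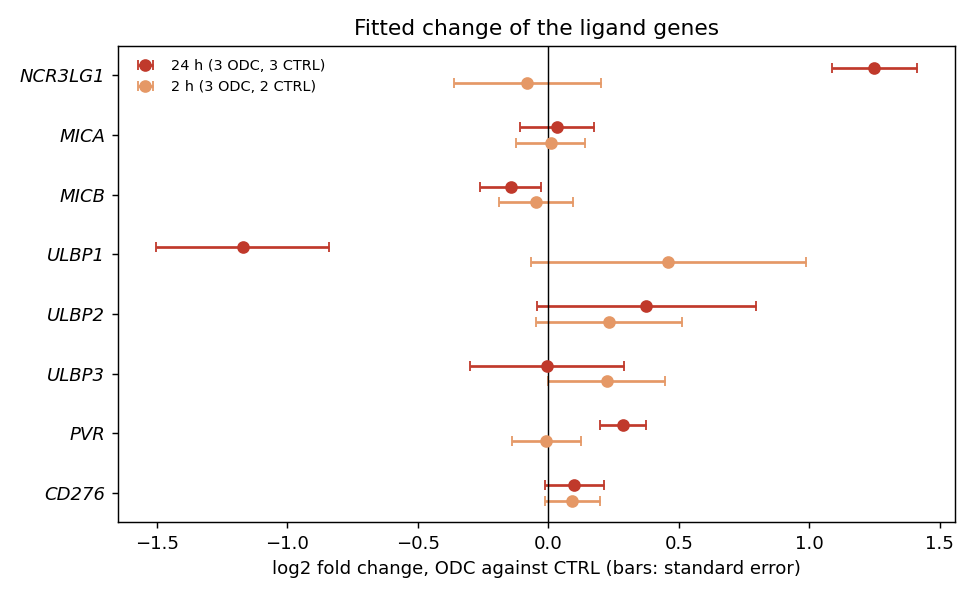
Log2 fold change, ODC against CTRL, of the 8 tested ligand genes at 24 h (red, 3 against 3 libraries) and 2 h (orange, 3 against 2). Bars are standard errors. NCR3LG1 (1.25) and ULBP1 (-1.17) lie farthest from 0 at 24 h.

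Controls of the 2 sets also differed in level, without a test, because the tables were scaled separately and the sets carry different months in their names. ULBP1 was 3.59-fold higher in the 24 h than in the 2 h controls (2.20 against 0.612 CPM, the latter from 7 and 27 counts), and 2.30-fold higher than in CTRL library 2 alone. MICB and PVR were 1.27-fold higher in the 24 h controls, and 1.11-fold and 1.10-fold against library 2 alone. CD276 was lower, at 0.648 of the 2 h level (176 against 271 CPM), and so was ULBP2, at 0.595. Against library 2 alone these ratios were 0.684 and 0.648. None of these 5 overlapped between the sets of controls, while NCR3LG1, MICA and ULBP3 did. Of all 13333 genes, 51% did not overlap either, so the count says nothing about the members.

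Further genes of NK recognition were compared from lists written from general knowledge. Of 10 tested ligands of activating and adhesion receptors at 24 h, 5 were fitted higher and 5 lower, and their median was 0.0043 on the log2 scale. None passed an adjusted p of 0.05, and 3 had an unadjusted p under 0.05, all higher (12.2% of all genes had, in either direction). These were ICAM1, a ligand of the integrin LFA-1 (log2 fold change 1.51, standard error 0.36, edgeR adjusted p = 0.157), CD70, the ligand of CD27 (0.36, adjusted p = 0.323), and NECTIN2, a further ligand of DNAM-1 listed under its older symbol PVRL2 (0.38, adjusted p = 0.390). CADM1 had 14 counts in CTRL library 1 at 2 h and 0 in all other libraries, and CD48 had at most 2 counts in a library. Of the remaining NKG2D ligands, RAET1L had 0 counts throughout and RAET1E at most 2 counts in a library.

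In the B7 family beside NCR3LG1 and CD276, 2 of 8 genes could be tested at 24 h. VSIR, which encodes the inhibitory protein VISTA, differed by 0.74 on the log2 scale (edgeR adjusted p = 0.629), and CD274, which encodes PD-L1, by -0.55 (adjusted p = 0.694). CD80 and CD86 had 0 counts at 24 h. ICOSLG, the ligand of ICOS, did not pass the filter on low counts. It had 0, 0 and 1 counts in CTRL libraries 1, 3 and 5 and 19, 8 and 17 counts in ODC libraries 2, 4 and 6. These groups did not overlap. The same was true of 17.9% of the genes tested at 24 h, but ICOSLG was not among those. In the joint fit of all 11 libraries it did pass the filter. Its difference between the times was 4.43 on the log2 scale (standard error 1.18, edgeR adjusted p = 0.518). Of 9 tested ligands of inhibitory NK receptors, 7 were fitted higher and 2 lower, with a median of 0.22. Of these, 0 had an unadjusted p under 0.05 (12.2% of all genes had). On the log2 scale HLA-E, the ligand of NKG2A, differed by 0.22 (edgeR adjusted p = 0.454) and HLA-C by 0.35 (adjusted p = 0.608).

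The metalloproteases that cut NKG2D ligands and B7-H6 from the cell surface were measured as well, since RNA levels do not give the amount of ligand on the cell. Of 7 tested genes of shedding, 4 were fitted higher and 3 lower at 24 h, with a median of 0.073. ADAM17, a sheddase of several of these ligands, differed by 0.32 on the log2 scale (edgeR adjusted p = 0.256), MMP2 by 0.56 (adjusted p = 0.485) and MMP9 by 0.64 (adjusted p = 0.566). Of 20 regulators, 10 were fitted on either side of 0. ATF4, a stress-response factor known to activate ULBP1, stood at 347, 352 and 274 CPM in CTRL and 199.9, 186 and 215 CPM in ODC cells. These groups did not overlap and differed by -0.70 on the log2 scale (standard error 0.12, edgeR adjusted p = 0.0876). ATF3, a stress-induced factor, differed by 1.73 (adjusted p = 0.180) and the checkpoint kinase gene CHEK1 by -0.32 (adjusted p = 0.214). MYC, known to activate NCR3LG1, differed by 0.12 (adjusted p = 0.889). The part of the proteases and of these regulators in the members' changes was not tested.

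NK cells can also kill through death receptors. Of 7 tested genes of these receptors and of their signalling inside the cell, an inhibitor among them, 4 were fitted higher and 3 lower. The median was 0.40. The members with the smallest p were CFLAR, an inhibitor of caspase-8 activation (0.54, edgeR adjusted p = 0.419), the TRAIL receptor gene TNFRSF10B (0.40, adjusted p = 0.449) and the adaptor gene FADD (-0.17, adjusted p = 0.512). In these lists 0 genes passed an adjusted p of 0.05 by edgeR at either time. At 2 h 1 of them, HLA-G, had an unadjusted p under 0.05, where 2.34% of all genes did. Its log2 fold change was 1.36, and it was 1.88 without CTRL library 1 and 0.97 without CTRL library 2.

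**Figure D4:**
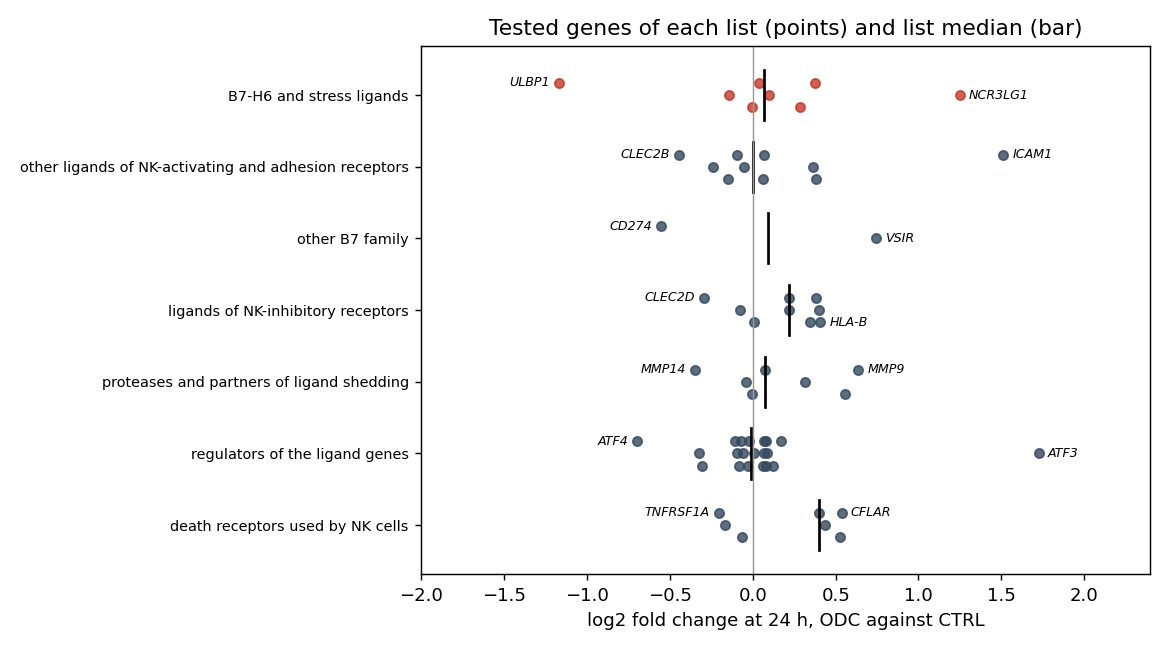
Log2 fold change at 24 h, ODC against CTRL, of the tested genes of each list (points) with the list median (bar) and the lowest and highest gene named. ICAM1 (1.51) and ATF3 (1.73) lie above NCR3LG1 (1.25), and no gene lies below ULBP1 (-1.17).

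The genes whose pattern was most like that of NCR3LG1 were TSKU, LGALSL, AKR1B10, CPEB2 and TRIM16. The measure was Pearson's r of log2 CPM over the 11 libraries, each gene centred within its time point, among 13325 genes. It was 0.974 for TSKU, a secreted protein gene, 0.951 for LGALSL, 0.944 for the aldo-keto reductase gene AKR1B10, 0.940 for CPEB2 and 0.938 for TRIM16. These points share the libraries and the treatment. AKR1B10 was low, with 1, 2 and 7 counts in CTRL libraries 1, 3 and 5 at 24 h. In ODC libraries 2, 4 and 6 it had 51, 29 and 125 counts. Before taking logarithms 0.25 CPM was added, which weighs most on genes this low. TSKU went from 30.1 CPM in CTRL to 49.5 CPM in ODC cells at 24 h and was at 15.9 and 15.6 CPM at 2 h. TRIM16 went from 22.8 to 67.2 CPM at 24 h, and how reads shared with its paralog TRIM16L were counted was not tested.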

How the data were processed

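Stranded mRNA libraries were read from a single end, and the authors used STAR with hg38 for alignment and HTSeq 0.9.1 for counting. The values they deposited are raw read counts, in 2 tables of 26485 symbols. The submitters' processing notes name STAR 2.7.0f and edgeR 3.26.8, and the paper's methods name other versions of both. The annotation and strand setting used for counting are not given in the sources used here.

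ODC was compared with CTRL separately at 24 h and 2 h with edgeR 4.0.16 in R 4.3.3 (earlier quasi-likelihood method, TMM factors, filterByExpr at 10 counts a library and 15 in total), two-sided, with Benjamini-Hochberg adjustment. The difference between times used all 11 libraries. The scripts were tested on simulated data. Levels per kb used MANE Select lengths. The members, lists and tests were chosen with earlier results of these data known. The text names every member, up to 3 genes of smallest p at 24 h per list, and the 5 genes most like NCR3LG1 in pattern. HLA-G, MYC, ICOSLG, KRT8, KRT18, VIM, PAX8, MET, CDH2 and genes at or near 0 were added after their values were seen. So were CD68, CD14, CSF1R, ITGAM, COL1A1 and PDGFRB. A gene that this rule would name is not reported here. Alternatives covered filters, scaling, tests (DESeq2 1.42.0 among them), a joint fit and each library left out. Replicates of a group differed by more than sampling noise (chi-square per gene of 19.7 to 61.5). Intervals and floors cover counting error only.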

Additional observations from a re-analysis of the deposited data

How the results depend on the processing

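The log2 fold change of NCR3LG1 at 24 h lay between 1.22 and 1.25 over 11 alternative settings and between 1.13 and 1.40 with each library left out. It lost its call with scaling by library size only (1.22, 0 members passing) and without CTRL library 1 (1.18), 3 (1.17) or 5 (1.40) or ODC library 2 (1.29) or 4 (1.32), so that between 0 and 1 members passed with a library left out. The likelihood ratio test passed 2 members, NCR3LG1 and ULBP1, among 186 genes in all, against 21 in the reported fit. All genes passing came to 59 with every gene of at least 1 count, 145 by DESeq2, 95 in the joint fit and 2 to 53 with a library left out. At an unadjusted p under 0.05, 3 members passed at 24 h in every alternative, where 12.2% of all genes did in the reported fit. The share of all genes in each alternative was not taken. Since the set was chosen with this contrast known, nothing is read from this count. The 24 h libraries carry no shared replicate numbers. With libraries of adjacent numbers taken as pairs, whose deviations correlated at 0.20, 0.57 and 0.43, 1 member passed and 176 genes passed in all. The labels state no such pairing. At 2 h, NCR3LG1 ranged from -0.45 to 0.45 with a library left out. The difference of NCR3LG1 between the times ranged from 0.79 to 1.70, and no member passed in any alternative. Of 363 fold changes of the other members under alternatives, 348 stayed within the spread between replicates and 14 moved by more. The other 1, ULBP1 at 24 h by the likelihood ratio test, gained the call. None of these members was called in the reported fit, so no call could reverse. Signs did turn in some, such as ULBP1 at 2 h (0.46, and -0.16 without CTRL library 1). ULBP2 at 24 h went from 0.38 to -0.054 without ODC library 6. ULBP1 at 2 h could not be tested above 1 CPM in at least 3 libraries. RAET1G, at 0 counts, could not be tested, and ULBP1 rested on 7 to 59 counts a library.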
